A study of Homo sapiens with 9 samples.

Results

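Nascent transcription in clone 2 of the PCIF1 knockout was compared with that in control cells of MEL624, a human melanoma cell line. Of the 58336 genes listed, the 17121 with a mean of at least 10 normalized counts over control and clone 2 were compared. PPIAP72 lay just inside that limit, with 11.8 counts in control and 8.23 in clone 2, and RPEP3 just outside it, with 12.5 and 7.49. The 6 libraries of this comparison, out of 9, were 3 biological replicates of wild-type MEL624 cells carrying a random sgRNA and 3 of a single clone labelled PCIF1 KO2. The other 3 libraries came from a second clone, PCIF1 KO1 or clone 1, whose values are given for part of the genes and gene groups below. Both clones were set against the same control mean, so their ratios are not independent. The promoter of the guide construct, the edit made in PCIF1 and the selection of the control cells (a pool or a clone) were not stated in the sources used here.

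PCIF1 methylates the adenosine that directly follows the cap of many mRNAs, once that adenosine carries a methyl group on its ribose, and so makes the cap-adjacent base m6Am. It binds the phosphorylated tail of RNA polymerase II. PRO-seq (precision run-on sequencing) lets engaged polymerases in permeabilized cells add a labelled nucleotide, and so reads transcription in progress rather than the RNA that has accumulated.

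Every value below is the authors' mean of 3 libraries, turned into a normalized count per gene, and ratios are log2 of clone 2 over control after adding 1 count to each. With 1 mean per group, the spread between replicates is unknown, no test was possible and no gene is called changed. "At least 2-fold" describes size alone. In such bulk libraries, fewer cells of a kind and less transcription per cell cannot be told apart.

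The summed counts were 3760730 in control and 3823178 in clone 2, a total set by the authors' scaling. PCIF1 itself (chr20:45934683-45948023, plus strand) stood at 239.5 counts in control, against 269.6 in clone 1 and 239.3 in clone 2, which does not check the knockout, since an edited gene can still be transcribed. Of 9 melanocyte identity genes, only MITF, PMEL and PAX3 reached 10 counts, in control and in clone 2 alike. TYR was listed at 0 in both, and SOX10 at 0 in control and 6.08 in clone 2, so most of these 9 genes were absent or near 0. Of a longer list of 28 melanocyte lineage genes, 11 were compared, 5 above control and 6 below. TFAP2A had 652.2 counts in control and 628.8 in clone 2, and GPNMB 226.9 and 208.4. EDNRB (6.56 and 20.4) and RAB38 (11.8 and 38.2) were at least 2-fold higher, and 0 were 2-fold lower. PMEL (48.4 and 23.8) fell just short of that size, with a log2 ratio of -0.997. EDNRB passed the count limit through clone 2, whereas CAPN3 (12.4 and 5.44) and BCL2A1 (0.381 and 11.8) lay under it. The summed markers of blood (4 genes) were 4.06 in control and 5.12 in clone 2, and those of endothelium (4) 9.33 and 10.8. Those of fibroblasts (6) were 34.1 and 49.0 and those of epithelium (6) 1242 and 1043. The epithelium sum was carried by the keratin genes KRT8 (385 and 374) and KRT18 (842 and 663), with KRT14 at 0 in both groups. These sums leave out members of longer lists. Of 10 endothelial markers, the 2 compared, ROBO4 (214.3 and 140.2) and ESAM (118.6 and 87.0), lay below control. Of 12 fibroblast markers, 6 were compared, with 3 above control, such as ACTA2 (26.0 and 51.7), and 3 below, such as THY1 (64.3 and 36.1). The part of such markers in the differences below was not tested.

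The genes at the extremes included a set listed at 0 in one group. Stretches of 100 bases that end at the annotated start base are shown for 6 of them, because CpG content of promoters is described below; capitals mark CG. The sequences are from RefSeq (GRCh38.p14), each read 5′ to 3′ on the gene's own strand. The first 4 were listed at 0 in control and the last 2 at 0 in clone 2.
MGMT (chr10:129467142-129467241, plus strand): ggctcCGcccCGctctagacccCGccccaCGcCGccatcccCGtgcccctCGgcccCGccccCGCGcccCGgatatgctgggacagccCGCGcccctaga
CTTNBP2 (chr7:117873441-117873540, minus strand): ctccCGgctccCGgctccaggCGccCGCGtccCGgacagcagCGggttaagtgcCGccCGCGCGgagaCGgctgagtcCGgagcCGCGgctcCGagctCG
ZNF677 (chr19:53254823-53254922, minus strand): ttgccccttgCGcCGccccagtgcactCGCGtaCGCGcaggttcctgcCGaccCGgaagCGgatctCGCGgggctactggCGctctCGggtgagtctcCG
CAVIN2 (chr2:191847088-191847187, minus strand): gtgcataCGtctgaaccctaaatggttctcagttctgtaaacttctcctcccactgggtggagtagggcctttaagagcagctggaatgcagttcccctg
AUTS2 (chr7:69598376-69598475, plus strand): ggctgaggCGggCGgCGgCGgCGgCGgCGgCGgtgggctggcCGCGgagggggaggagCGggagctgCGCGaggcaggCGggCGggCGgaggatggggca
LINC00540 (chr13:22210186-22210285, plus strand): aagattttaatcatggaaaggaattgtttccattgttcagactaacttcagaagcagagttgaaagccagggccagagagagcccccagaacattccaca

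Most genes were transcribed at like levels in clone 2 and control, and a small minority stood far apart. The median log2 ratio was -0.01, the quartiles were -0.24 and 0.27, and 83.0% of genes lay within 1.5-fold. Clone 2 was above control at 8444 genes (49.3%). At least 2-fold higher were 552 genes (3.22% of those compared) and at least 2-fold lower 342 (2.00%), together 894 (5.22%). At least 4-fold higher were 118 and at least 4-fold lower 62. Protein-coding genes made up 12515 of those compared, 329 of the higher set and 192 of the lower.

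Low counts held most of these genes. Between 10 and 50 counts, the central 95% of the log2 ratios of 5217 genes ran from -1.29 to 1.71. It ran from -0.74 to 0.96 for 6610 genes of 50 to 200 counts, from -0.53 to 0.76 for 4825 genes of 200 to 1000 and, over the 469 genes with more counts, from -0.65 to 0.65. With at least 50 counts, 198 of 11904 genes (1.66%) stood at least 2-fold higher and 88 (0.739%) lower. Genes above control made up 61.74% of the 2-fold set, but 49.46% with no limit on counts and 49.85% on the scale per kb, where 515 genes were higher and 518 lower.

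**Figure D1:**
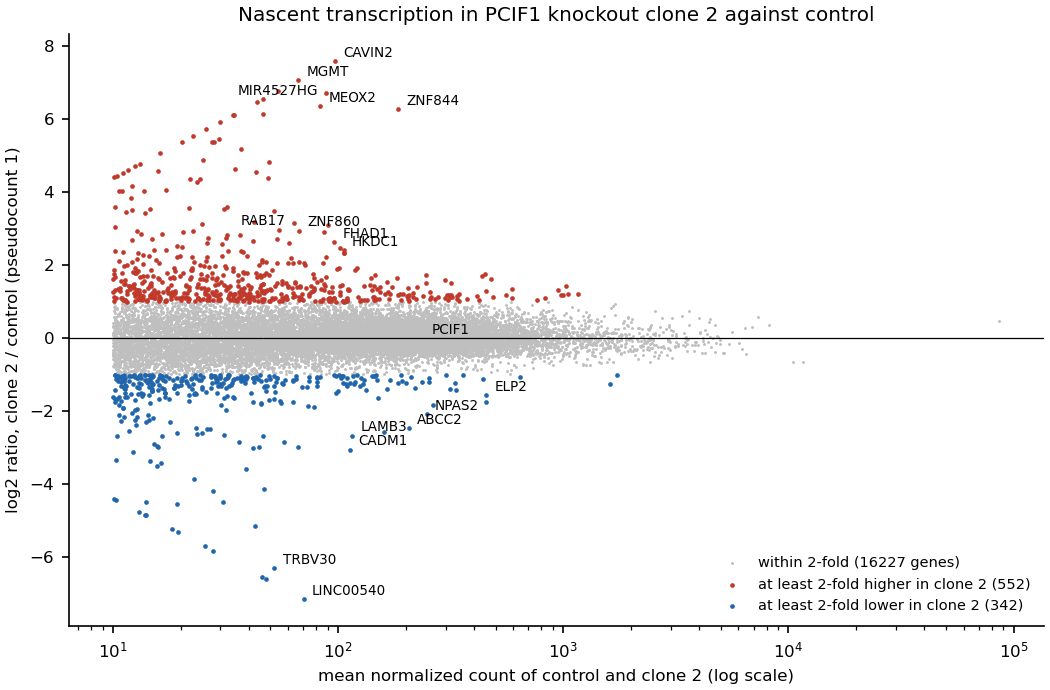
Each dot is 1 of the 17121 compared genes, by mean normalized count of control and clone 2 (x axis, log scale) and log2 ratio of clone 2 to control (y axis, pseudocount 1). The 552 genes at least 2-fold higher are red and the 342 at least 2-fold lower are blue, and both are densest at low counts.

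The genes with the highest ratios had few or no counts in control and were transcribed in clone 2. Among genes of at least 50 counts, CAVIN2, an adaptor of the caveolar coat, was listed at 0 in control, 15.7 in clone 1 and 192.6 in clone 2. MGMT, the repair protein that takes alkyl groups off guanine, was listed at 0, 113.5 and 133.0. MEOX2, a homeobox transcription factor, stood at 1.03 counts in control, against 166.9 in clone 1 and 164.8 in clone 2. The zinc finger gene ZNF844 had 3.71, 256.4 and 363.3. The microRNA host MIR4527HG had 0.684 counts in control, against 3.09 in clone 1 and 176.0 in clone 2.

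Further genes of this end had counts in control and were 5 to 10 times as high in clone 2. RAB17, a small GTPase of membrane traffic in epithelial cells, had 11.96 counts in control and 114.9 in clone 2, a log2 ratio of 3.16. The noncoding LINC02577 had 18.1 and 161.4. Of the zinc finger genes, ZNF860 had 14.7 and 119.6 and ZNF701 19.6 and 152.5. DNAH6, a dynein heavy chain of cilia, had 16.2 and 104.3. HKDC1, a member of the hexokinase family, had 33.0 counts in control, against 53.2 in clone 1 and 178.5 in clone 2.

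In 2 of these 15 genes clone 1 lay below control instead. ZNF560 had 11.6 counts in control, against 1.90 in clone 1 and 97.3 in clone 2. FHAD1, a gene of a forkhead-associated domain protein, had 25.9, 19.8 and 165.4.

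The genes with the lowest ratios encoded, among others, proteins of adhesion, matrix and transport. LINC00540 was listed at 140.6 counts in control and at 0 in both clones. CADM1, an immunoglobulin adhesion molecule, had 202.3 counts in control, against 3.86 in clone 1 and 23.5 in clone 2. FAM20C, the kinase of secreted proteins, had 117.9, 59.1 and 14.0. TLL1, a metalloprotease of the tolloid family, had 101.9, 15.8 and 13.2. LAMB3, the beta chain of a basement membrane laminin, had 199.7 counts in control, against 181.1 in clone 1 and 30.6 in clone 2, a log2 ratio of -2.67 in clone 2 and -0.14 in clone 1.

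Lower values were also seen at PCDH7, a protocadherin gene outside the clusters, with 274.0 counts in control and 45.2 in clone 2. ABCC2, an export pump for conjugated compounds, had 348.9 and 62.2. NPAS2, a clock transcription factor that pairs with BMAL1, had 399.5 counts in control, against 204.6 in clone 1 and 94.3 in clone 2. CD74, the invariant chain of MHC class II, had 86.7 and 24.5, and NHS, a regulator of actin, 84.8 and 25.2. The T cell receptor segment TRBV30, at 103.7 and 0.331 counts, resembles other segments of its locus, so its reads are uncertain.

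**Figure D2:**
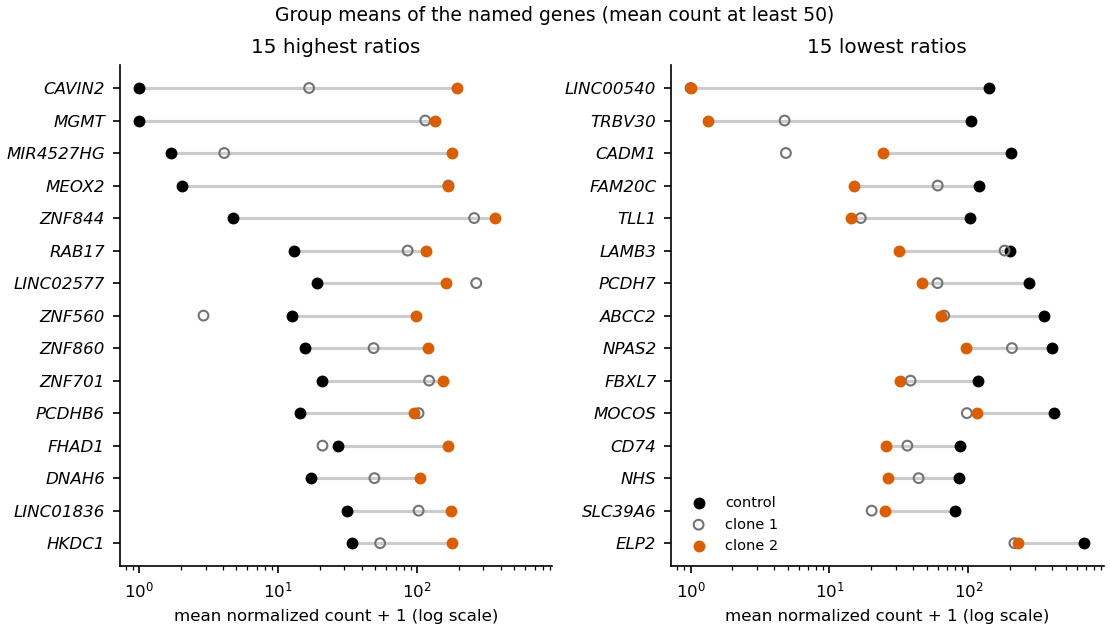
Mean normalized count plus 1 (x axis, log scale) in control (black), clone 1 (open) and clone 2 (orange) for the 15 highest and 15 lowest log2 ratios of named genes with at least 50 counts, 1 gene per line. At LAMB3 clone 1 sits beside control while clone 2 is far lower, and at ZNF560 and FHAD1 clone 1 is below control.

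A count of 0 in 1 group marked 30 genes in all. At 0 in control and at least 20 counts in clone 2 were 18 genes, of which 13 had at least 10 counts in clone 1 and 3 were at 0 there. Beside CAVIN2 and MGMT they included ZNF677 (92.7 counts in clone 2), PDE3B, which breaks down cAMP (87.0), PNMA8A of the paraneoplastic antigen family (68.6) and CTTNBP2, a binding partner of cortactin (59.7). ZNF718 (51.8) and CNTNAP4, a neurexin relative (45.2), were listed at 0 in clone 1 as well as in control. At 0 in clone 2 and at least 20 counts in control were 12 genes, all of them under 1 count in clone 1. They included the actin nucleator gene COBL (95.4 counts in control), LINC02241 (91.6), LINC01515 (55.7), FAM111B (51.1) and AUTS2, a gene of neural development (38.7). Values per kb are rounded to 0.01, which at AUTS2, the longest of these genes, stands for 0.242 counts, so rounding could hide little here. A listed 0 still does not show that a gene was silent, since depth per library is unknown.

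The promoters of these extreme genes were of mixed kinds. In the window from 250 bases before to 50 after the start, CTTNBP2 held 53 CpG, MGMT 45, ZNF677 34 and CAVIN2 5. Among genes at 0 in clone 2, AUTS2 held 55 and LINC00540 3. A promoter was called CpG-rich with an observed over expected CpG of at least 0.6 and a GC content of at least 50%; 58.5% of all 19008 RefSeq promoters matched to the table were. Of the compared genes, 11471 (67.0%) had a promoter entry, and 78.7% of these were CpG-rich. The share was 61.3% (203 of 331) among genes at least 2-fold higher and 60.1% (104 of 173) among those at least 2-fold lower. Genes with few counts are set beside these: among genes under 20 counts in control, the share was 56.7% for the 178 that were 2-fold higher in clone 2 and 53.8% for the 705 that were not. Among genes under 20 counts in clone 2, it was 52.5% for the 99 that were 2-fold lower and 53.1% for the 702 that were not.

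PCIF1 acts on transcripts that begin with A, so genes were grouped by the base at the annotated start. The 5227 genes starting with A had a median log2 ratio of 0.02 (quartiles -0.20 and 0.28), and the 6244 starting with C, G or T a median of -0.00 (quartiles -0.21 and 0.25). The medians differed by 0.0266. Taken singly, the 208 genes starting with T had a median of 0.09, above that of the A genes, with 3.37% at least 2-fold higher; the median was 0.01 for C and -0.01 for G. At least 2-fold higher were 3.33% of the A genes and 2.51% of the others, and at least 2-fold lower 1.59% and 1.44%. CpG-rich promoters made up 74.8% of the A genes and 81.9% of the others. The size of the difference of medians is small beside the width of either group, and an annotated start need not be the start in use.

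Classes of genes were read against the background of 3.22% higher and 2.00% lower. Among all compared genes of 10 to 50 counts, these shares were 6.79% and 4.87%, and the classes were not matched by count. Small nucleolar RNAs (snoRNAs), which guide modification of ribosomal and spliceosomal RNA, had a median log2 ratio of 0.46 over 119 genes, with 18 (15.1%) at least 2-fold higher and 2 lower; in clone 1 the median was 0.05. The box C/D members (SNORD), guides of ribose methylation, had a median of 0.56 with 14 of 59 (23.7%) higher and 1 lower. The box H/ACA members (SNORA), guides of pseudouridylation, had a median of 0.46 with 3 of 49 higher and 1 lower. Outside the shifted stretches of chromosomes described below, the 108 remaining snoRNAs had a median of 0.39, with 12 (11.1%) higher. That share was not taken for SNORD genes alone. Of the higher SNORD genes, SNORD11, SNORD11B, SNORD20, SNORD70 and SNORD82 lie in the higher stretches of chromosome 2. SNORD116-29 lies in a shorter run of higher genes on chromosome 15. At 50 counts or more, the median of 47 snoRNAs was 0.53.

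The sequences of 4 SNORD genes that were at least 2-fold higher, chosen after their values were seen, are shown as the reference genome (hg38) has them, with the first box C (TGATGA) and the last box D (CTGA) on the gene's strand in capitals.
SNORD20 (chr2:231456444-231456523, minus strand): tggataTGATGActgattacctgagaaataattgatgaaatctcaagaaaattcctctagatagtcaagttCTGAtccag
SNORD82 (chr2:231460371-231460440, minus strand): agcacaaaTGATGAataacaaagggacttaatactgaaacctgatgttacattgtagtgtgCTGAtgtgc
SNORD11 (chr2:202293051-202293134, plus strand): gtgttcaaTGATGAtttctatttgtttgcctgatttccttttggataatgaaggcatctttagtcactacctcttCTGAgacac
SNORD116-29 (chr15:25106521-25106603, plus strand): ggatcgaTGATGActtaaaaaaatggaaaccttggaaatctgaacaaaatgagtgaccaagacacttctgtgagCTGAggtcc

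SNORD20 had 77.5 counts in control, against 131.4 in clone 1 and 210.3 in clone 2, and SNORD82 had 28.0, 37.97 and 84.6. Both lie within the gene NCL, for the nucleolar protein nucleolin, which had 2471, 3579 and 3587. SNORD11 had 23.9, 48.6 and 68.4, and SNORD116-29, of an imprinted cluster on chromosome 15, had 5.71, 12.6 and 23.6. SNORD99 had 340.3 counts in control, against 401.9 in clone 1 and 773.4 in clone 2. Against this, SNORD39 had 43.3, 28.4 and 14.5. A box C followed by a box D, both searched as exact letters on the gene's strand, was found in 10 of these 14 higher SNORD genes, in 47 of the 59 compared, in 227 of the 313 listed (72.5%) and in 0.474% of SNORA genes. Most snoRNAs lie in introns of host genes, and reads of the snoRNA and of its host cannot be told apart where they overlap.

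Zinc finger genes of the ZNF family, many of which encode repressors of transposable elements, were counted by chromosome. On chromosome 19, 17 of 226 (7.52%) were at least 2-fold higher and 1 lower, with a median of 0.11; on other chromosomes it was 7 of 222 (3.15%) and 0, with a median of 0.01. Chosen after their values were seen, ZNF486 had 126.8 counts in control, against 359.6 in clone 1 and 362.3 in clone 2, ZNF610 had 0.7, 36.9 and 23.3, and ZNF878, the lower one, 18.4, 20.5 and 8.1. ZNF525 had 17.6, 1.5 and 78.1, so clone 1 was below control and clone 2 above it. These genes resemble each other closely, and reads of one can be given to another.

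The clustered protocadherins of chromosome 5, cell-surface proteins that give neurons an identity, had a median of 0.63 over 33 genes, with 12 (36.4%) at least 2-fold higher and 0 lower. In clone 1 their median was larger, at 0.99. PCDHB6 had 13.4 counts in control, against 101.4 in clone 1 and 93.4 in clone 2, and PCDHGB1 4.1, 36.4 and 58.1, whereas PCDHB13 had 12.05, 13.1 and 8.2. The alpha members have exons in common, as do the gamma members, and are not separate measurements. Long intergenic noncoding genes (LINC) had 29 of 334 (8.68%) higher and 13 (3.89%) lower, against 6.79% and 4.87% of all compared genes of 10 to 50 counts. Of 79 ribosomal protein genes 0 were 2-fold off, and their median was -0.01. Among all compared genes of 200 to 1000 counts, 0.97% were at least 2-fold higher and 0.37% lower. The 0 of 79 therefore does not set this class apart from other well-counted genes.

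**Figure D3:**
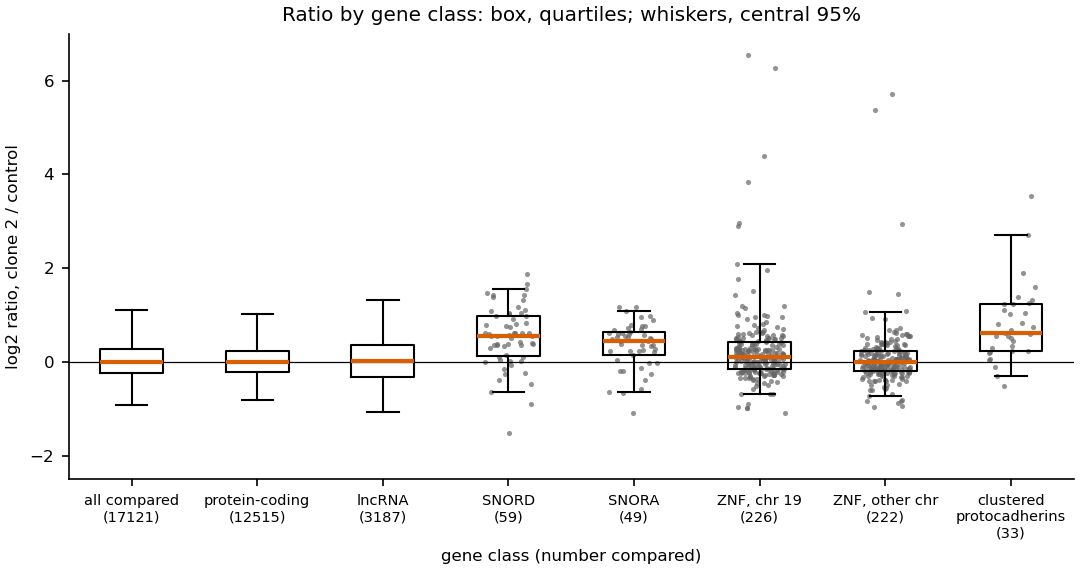
Log2 ratio of clone 2 to control (y axis) by gene class (x axis, number compared in brackets), with boxes for the quartiles, an orange line for the median and whiskers for the central 95%; classes under 300 genes show each gene as a dot. The medians are -0.01 for all compared genes, 0.56 for SNORD, 0.46 for SNORA and 0.63 for clustered protocadherins.

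Pathways and cell functions were described through 45 gene lists, of which 42 had at least 5 compared members. Medians of at least 0.15 above 0 were found in 7 and of at least 0.15 below 0 in 8, against a median of -0.01 over all genes, and 11 of the 42 had no member 2-fold off. Every count of 2-fold members below stands beside 3.22% higher and 2.00% lower among all compared genes. Among those of 10 to 50 counts the shares were 6.79% and 4.87%, and the lists were not matched by count. In clone 1, medians were 0.31 for cholesterol, 0.20 for interferon, 0.16 for phosphodiesterases, 0.10 for neurotransmitter receptors, 0.07 for adhesion and 0.035 for amino acid transporters. For lists lower in clone 2, they were -0.14 for MAPK output, -0.10 for Notch, -0.06 for receptor tyrosine kinases and -0.05 for laminins and matrix. They were -0.01 for the dedifferentiated state, 0.01 for caveolae and 0.02 for YAP and TEAD targets. The 4 members with the largest ratios of each list could be named; not all of them are, and any other member or list named was chosen after its values were seen.

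Laminins, integrins and matrix proteins lay mostly below control. Of 35 laminins, integrins and matrix proteins, 26 were below control, 5 at least 2-fold lower and 0 higher, with a median of -0.22. At least 2-fold lower were 2.00% of all compared genes and 4.87% of those of 10 to 50 counts, a range that holds NID2, FN1 and FBLN1. Beside LAMB3, the basement membrane linker NID2 had 21.3 counts in control and 3.71 in clone 2, fibronectin (FN1) 23.03 and 6.06, fibulin-1 (FBLN1) 16.2 and 4.08, and the heparan sulfate proteoglycan HSPG2 477.7 and 238.1. The integrin genes ITGA5 (373.2 and 246.6) and ITGA3 (1521 and 1023) were within 2-fold. Collagens were mixed: COL16A1 had 53.02 and 23.3 counts, COL9A2 17.7 and 47.3.

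Adhesion molecules of the cadherin and immunoglobulin families went both ways. Of 34 compared, 6 were at least 2-fold higher and 3 lower, with a median of 0.25 that was -0.05 at 50 counts or more and -0.08 on the scale per kb. NCAM1, the neural adhesion molecule, had 84.3 counts in control, against 0.510 in clone 1 and 1.40 in clone 2. CDH10, a cadherin of neurons, had 1.46, 17.5 and 27.6, PCDH17 2.16, 15.1 and 23.4, and the contactin CNTN5 7.28, 31.3 and 37.3. CADM1 and PCDH7, given above, were the other 2 lower members.

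Receptors for transmitters and the enzymes that end cyclic nucleotide signals lay on the higher side. Of 18 neurotransmitter receptor genes compared, 13 were above control, 4 at least 2-fold higher and 2 lower, with a median of 0.53. Of the subunits of the GABA-A receptor, GABRB2 had 0.4001 counts in control and 23.9 in clone 2, GABRA2 13.7 and 48.0, and GABRB1 10.1 and 25.1. The muscarinic receptor CHRM3 had 104.8 and 41.1, and the adrenergic receptor ADRA1B 13.9 and 43.6. Of 16 phosphodiesterases, 13 were above control and 2 at least 2-fold higher, PDE3B and PDE6D (32.7 and 69.9), with a median of 0.41 that was 0.07 on the scale per kb. PDE6D lies in a higher stretch of chromosome 2. PDE3A had 45.0 counts in control, against 44.3 in clone 1 and 81.6 in clone 2.

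Genes of the Notch pathway, in which a ligand on 1 cell triggers cleavage of a receptor on its neighbour and the freed fragment switches on HES genes, showed values on both sides. Of 20 compared, 13 were below control, 3 at least 2-fold lower and 2 higher, with a median of -0.18. Of the ligands, JAG1 had 204.8 counts in control, against 97.4 in clone 1 and 92.4 in clone 2, while DLL4 had 32.7, 89.8 and 138.2. The receptor NOTCH1 had 153.0 and 77.3 in control and clone 2, within 2-fold. The fringe glycosyltransferase MFNG, which tunes the receptor, had 43.7 and 18.0, and its relative LFNG 106.9 and 57.7. The target HES1 had 75.2 counts in control, against 13.8 in clone 1 and 8.50 in clone 2, a log2 ratio of -3.01 in clone 2, whereas HES6 had 60.2, 82.4 and 127.1. HES6 lies in a higher stretch of chromosome 2.

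The ATF4 and cholesterol lists had medians above 0 with few large ratios. Other metabolic and stress lists lay nearer 0, on both sides. Medians were 0.12 for heat shock, 0.10 for fatty acid synthesis and 0.08 for ER chaperones. They were -0.01 for NRF2 targets, -0.03 for hypoxia and glycolysis and -0.08 for p53 targets. Of 37 targets of ATF4, the factor of the integrated stress response, 30 were above control and 3 at least 2-fold higher, with a median of 0.27 (0.13 in clone 1). NUPR1, a stress-induced chromatin protein, had 17.0 counts in control, against 9.53 in clone 1 and 74.7 in clone 2, GDF15, a secreted stress signal, 205.6, 231.3 and 694.1, and ALDH1L2, of mitochondrial folate metabolism, 194.0, 302.8 and 443.2. CHAC1, which degrades glutathione, had 162.0 and 271.7 in control and clone 2, whereas ATF4 itself had 1822 and 1956. Of 23 cholesterol synthesis genes, 18 were above control and 1, CYP51A1, at least 2-fold higher, with a median of 0.27. MVD and INSIG1 were within 2-fold at 97.3 and 144.8, and 187.1 and 259.7.

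Amino acid transporters had a median of 0.19, with 20 of 29 above control. SLC43A1 had 130.7 and 258.3 counts, and the glutamate transporters SLC1A1 and SLC1A3 had 16.4 and 4.44, and 132.6 and 211.6. Of 32 type I interferon response genes, 18 were above control and 3 at least 2-fold higher, with a median of 0.16. Without the shifted stretches, which hold IFIT1 (41.2 and 75.8) and IFIT3 (116.4 and 167.5), that median was 0.02. OAS1 (47.3 and 25.6) and OAS2 (59.2 and 34.5) lay below control.

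The mitosis list and that of replication genes had medians of -0.19 and -0.07. Of 41 mitosis genes 30 were below control and none was 2-fold off; the median in clone 1 was 0.04. Among them were the kinetochore gene NDC80 (506.4 and 304.9), which lies in a lower stretch of chromosome 18, the kinesin KIF4A (153.1 and 97.9) and the kinase AURKA (295.4 and 209.8). CDK1, which drives entry into mitosis, had 351.2 and 525.5 counts, in a higher stretch of chromosome 10. Of the replication genes, the repressor E2F8 had 71.1 counts in control, against 58.4 in clone 1 and 20.1 in clone 2, and the polymerase subunit POLE2 27.3, 62.4 and 69.1.

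Of 21 genes of MAPK pathway output, 14 were below control and 1, the cytokine gene LIF (405.0 and 199.3), at least 2-fold lower, with a median of -0.19. The feedback phosphatase DUSP4 had 2051 and 1290 counts, its relative DUSP6 3077 and 2223, and FOSL1, an AP-1 subunit, 2605 and 1905. Of 30 markers of the dedifferentiated melanoma state, 22 were below control, with 2 at least 2-fold higher and 2 lower and a median of -0.19. POU3F2, a neural crest transcription factor, had 29.0 counts in control and 83.2 in clone 2, and TWIST1, a factor of mesenchymal cells, 200.8, 223.0 in clone 1 and 411.4. TGFBI, a matrix protein induced by TGF-beta, had 149.0 and 69.7. Receptor tyrosine kinases had a median of -0.21, with 15 of 21 below control, but MERTK (11.8 and 40.7) and FGFR4 (10.3 and 33.6) were at least 2-fold higher.

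Caveolar genes had a median of -0.23 over 13 genes, with 2 at least 2-fold higher and 2 lower, the 2 higher ones being CAVIN2 and PACSIN1 (7.35 and 15.7) and the 2 lower ones CAVIN4 (20.6 and 8.55) and EHD3 (44.2 and 20.8). The coat proteins CAV1 (1208 and 914.4) and CAVIN1 (606.2 and 626.8) were within 2-fold. Targets of YAP and TEAD had a median of -0.16, with 0 of 29 members 2-fold off.

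Single members stood out in lists whose medians were near 0. Of the guidance genes, the semaphorin receptor PLXNA2 had 43.1 counts in control, against 18.6 in clone 1 and 6.34 in clone 2, and the ephrin receptor EPHA7 114.2, 346.1 and 379.1. The BMP antagonist GREM1 had 70.5, 88.2 and 191.0, and the WNT antagonist DKK2 14.8, 50.3 and 43.5. The chaperone HSPB1 had 466.0 counts in control, against 424.3 in clone 1 and 197.6 in clone 2. TERT, the catalytic subunit of telomerase, had 26.2, 1.2 and 65.9, so the clones lay on opposite sides of control. ABCB1, the multidrug export pump, had 189.7, 304.6 and 428.6, while its relative ABCC2 was lower. The 37 genes of the cap and m6A machinery and the 49 of polymerase pausing and elongation had 0 members 2-fold off and medians of 0.00 and -0.02.

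**Figure D4:**
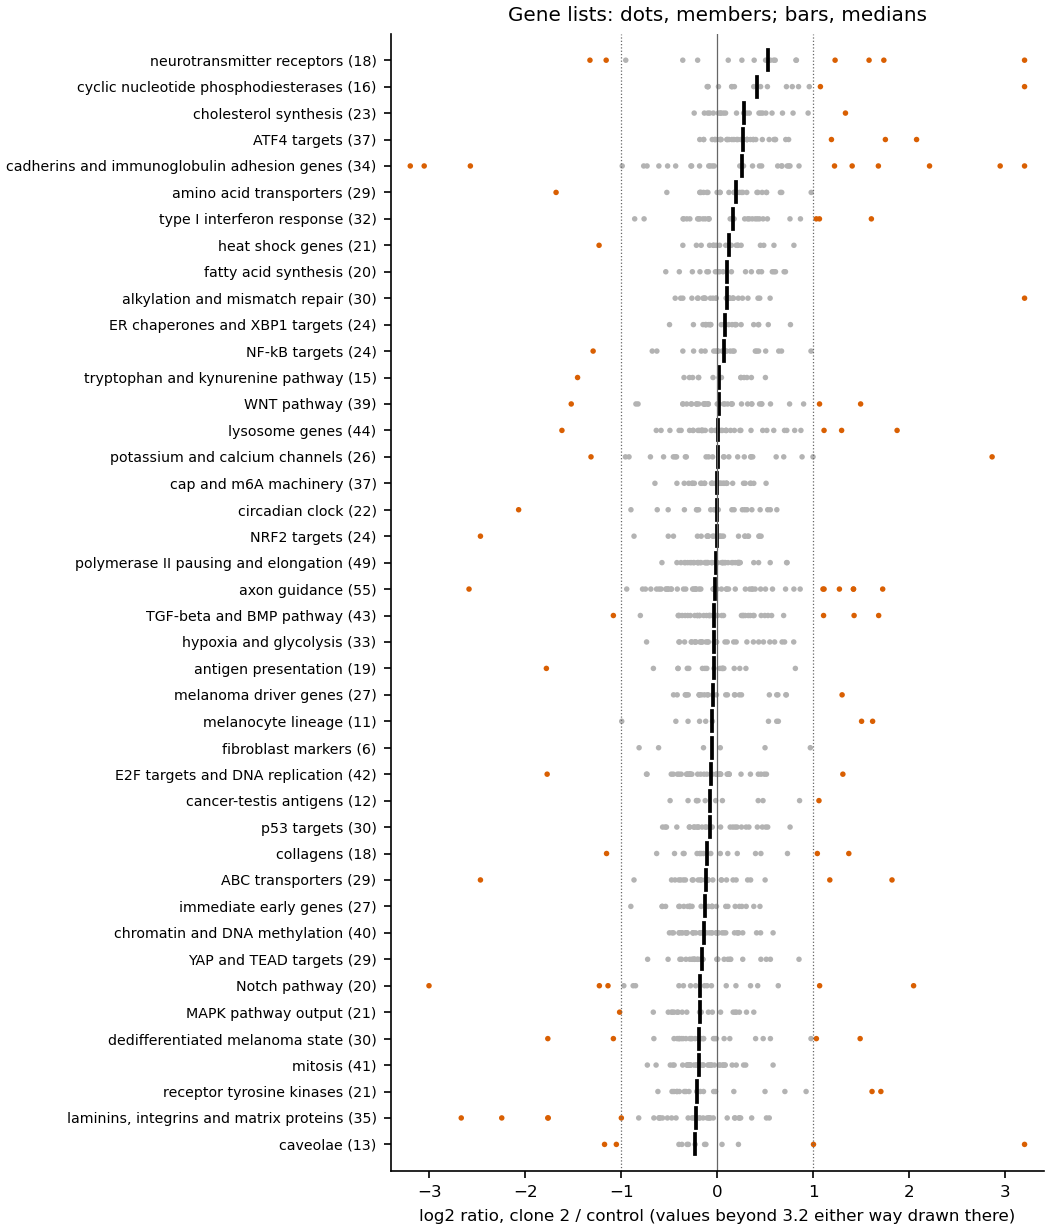
Log2 ratio of clone 2 to control (x axis; values beyond 3.2 are drawn there) for the members of the 42 gene lists with at least 5 compared genes (y axis, number compared in brackets), with members at least 2-fold off in orange and a bar at each median. The bars run from 0.53 for neurotransmitter receptors to -0.23 for caveolae; that of the adhesion list (0.25) is below 0 at 50 counts or more and on the scale per kb.

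Neighbouring genes had ratios of the same sign in several places. Of 668 successive windows of 25 compared genes, 61 had a median of at least 0.25 and 24 of -0.25 or less. Adjacent windows past that size with the same sign were joined into 11 stretches, which held 1483 genes (8.66% of those compared) and 170 (19.02%) of those 2-fold off, 120 higher and 50 lower. The stretches were found on these same ratios, so that share follows in part from how they were chosen. Without their genes, 432 of 15638 (2.76%) were at least 2-fold higher and 292 (1.87%) lower.

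In the longest stretches clone 2 was above control and clone 1 near it. On chromosome 10, 488 genes from TLK2P2 to CYP2E1 (chr10:37818606-133561220) had a median of 0.41, against 0.00 in clone 1, and 432 of them were above control. RPS24, a ribosomal protein gene there, had 2240 counts in control, against 2217 in clone 1 and 3267 in clone 2. MGMT lies in this stretch. On chromosome 3, 300 genes (chr3:3126933-49277232) had a median of 0.44 and 150 (chr3:50239618-88168729) a median of 0.33, against 0.02 and -0.02 in clone 1. RPL15 had 2586, 2495 and 3313, and TKT, an enzyme of the pentose phosphate pathway, 1413, 1397 and 1723.

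In the other stretches both clones lay on the same side of control. On chromosome 18, 100 genes (chr18:158383-21704780) had a median of -0.57, against -0.53 in clone 1, with 24 at least 2-fold lower. On chromosome 20, 75 genes (chr20:270863-6067897) had a median of -0.66, against -0.67, with 15 at least 2-fold lower and 2 above control. The kinase subunit gene CSNK2A1 there had 1646 counts in control, against 952.4 in clone 1 and 986.4 in clone 2. On chromosome 2, 75 genes that include CAVIN2 (chr2:190504338-202871766) had a median of 0.57 (0.65 in clone 1) and 95 that include RAB17 and NCL (chr2:229763837-242078722) a median of 0.39 (0.38). The protocadherin stretch of chromosome 5 had a median of 0.39 (0.66 in clone 1), that of zinc finger genes on chromosome 19 one of 0.32 (0.46), that of chromosome 8 one of 0.34 (0.27) and that of chromosome 1 one of -0.25 (-0.16). The chromosome 2 stretches were not called with windows of 50 genes. The number of copies of these regions was not measured here.

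Shorter runs of at least 4 adjacent genes, all at least 2-fold off in the same direction, numbered 7. Those on chromosomes 5 and 20, and the run from ANKRD20A5P on chromosome 18, lie inside the stretches given above. On chromosome 15, SNRPN, SNHG14, PWAR5, SNORD116-29 and PWAR1 (chr15:24823637-25420336), in the imprinted region expressed from the paternal copy, were higher; SNHG14 had 255.6 counts in control, against 468.8 in clone 1 and 567.5 in clone 2. These entries overlap, so they may count the same transcription. On chromosome 18, the 8 genes from ANKRD20A5P (chr18:14179395-14979839) had a median of -2.91, with ANKRD30B at 64.5 counts in control, against 16.3 in clone 1 and 8.14 in clone 2; several have near-identical copies elsewhere. A run of 6 genes with SLC39A6, ELP2 and MOCOS (chr18:36108531-36274599) had a median of -1.72. The run on chromosome 20 held SIRPA, a receptor for CD47, with 45.2, 8.82 and 7.197 counts. On chromosome 14, 5 genes that include FLRT2 (chr14:82642600-85654428) had a median of 2.42.

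**Figure D5:**
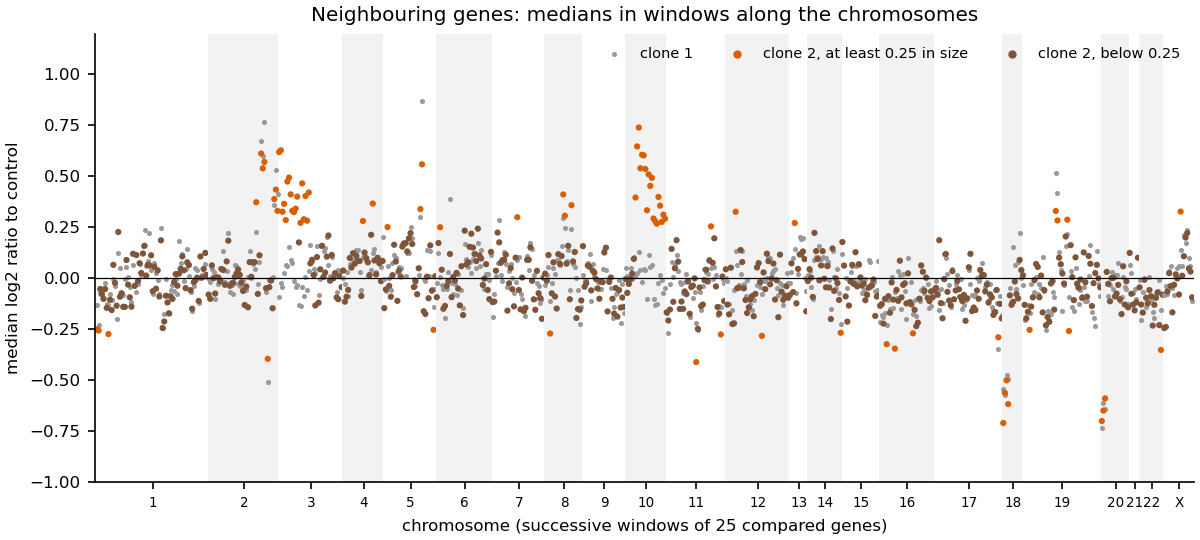
Median log2 ratio to control (y axis) in successive windows of 25 compared genes in chromosome order (x axis), for clone 2 (orange at 0.25 or more in size, brown below) and clone 1 (grey). On chromosomes 3 and 10 clone 2 sits above clone 1, and on chromosomes 2, 18 and 20 the clones lie together away from 0.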

How the data were processed

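PRO-seq libraries of MEL624 cells were analysed as group means: control and PCIF1 KO2, 3 libraries each, with PCIF1 KO1 beside them. The authors deposited a signal per gene, which per the file headers is a mean normalized count per kb. Per the submitters' processing notes, the tools were cutadapt 1.14, featureCounts, DESeq2 and Bowtie 1.2.2, with hg38 among the builds. The design text gives 40000 spiked Drosophila cells and an average of 50000000 mappable reads a library. Neither the counted feature nor the strand setting or the use of the spike-in is stated in the sources used here, and depth per library is unknown. The header has 6 names and the rows 5 cells; the missing one was taken as the symbol, since the next cell is the GENCODE 44 exon length for 64.4% of identifiers (within 5% for 83.1%). Symbols and positions are from GENCODE 44; 582 identifiers were not matched.

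Values were multiplied by length/1000, and genes averaging at least 10 counts were compared, with a pseudocount of 1. Named genes were PCIF1, the 15 highest and 15 lowest ratios at 50 counts or more, the 8 largest at 0 in 1 group, 4 per list and 2 per stretch; others were chosen after their values were seen. The members and lists were chosen with earlier results of these data known. Alternatives were other pseudocounts, count limits, scalings and window settings. Python 3.11.15, numpy 2.4.6, pandas 2.3.3 and matplotlib 3.10.9 were used; scripts were tested on simulated data.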

Additional observations from a re-analysis of the deposited data

How the results depend on the processing

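With 1 mean per group, neither replicate error nor a test can be had, and no library could be left out. No paired analysis was possible because the table holds 1 mean per group, so a replicate block and leaving out replicates were not run. A limit of 50 counts left 198 genes at least 2-fold higher and 88 lower, and CpG-rich shares of 68.9% among the lower and 83.4% among all compared genes. With no limit, 1792 were higher and 1831 lower, the CpG-rich shares were 52.6%, 42.1% and 67.7% for higher, lower and all genes, and 11 lists had a median of at least 0.15. On the scale per kb, 518 were lower and 81.6% of all genes were CpG-rich. Windows of 50 genes gave 5 stretches, on chromosomes 3, 10, 18 and 20, so those of chromosomes 1, 2, 5, 8 and 19 were not called. A limit of 0.40 gave 7, with 600 genes; those of chromosomes 1, 5, 8 and 19, the second of chromosome 2 and the second of chromosome 3 were not called, and those of chromosomes 3 and 10 were shorter. The median of the cadherin and immunoglobulin adhesion list became -0.0529 at 50 counts and -0.0753 per kb. The cause of these differences was not tested. Of 1470 recomputed values of 206 named genes, 1456 kept their direction and side of the 2-fold limit, 8 no longer passed it, 6 newly did and 0 changed direction. Another pseudocount, another count limit or the scale per kb cannot reverse the ratio of a gene. Many of these genes were also named for large ratios, so the 0 was nearly fixed in advance. Of 334 recomputed medians of 42 lists, 314 kept their direction and side of 0.15, 7 no longer passed 0.15, 11 newly did and 2 changed direction, those of the adhesion list above. Genes of low count, where the spread is widest, are least certain.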

Other observations

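Some genes of low level lay on opposite sides or at the edge of the lists. KCNJ8, a potassium channel subunit, had 2.46 counts in control, against 16.1 in clone 1 and 24.1 in clone 2, whereas KCNQ3 had 115.8, 59.1 and 45.9. Among lysosomal genes, the protease CTSF had 8.98, 18.8 and 35.5, and CTSH 16.6, 1.65 and 4.71. IL1B, an inflammatory cytokine gene, had 21.5 counts in control, against 10.4 in clone 1 and 8.17 in clone 2.

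The rows of the deposited table were not in random order. Its first 182 rows were lower than control in both clones and, after 4 rows, the next 322 were higher in both. Of the 894 genes past the 2-fold limit in clone 2, 283 lay in those 508 rows and 566 in the first 1500. The order was not used in any comparison.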
